A study of Homo sapiens with 12 samples.

Results

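The genes described here are 45 chaperone, co-chaperone and chaperonin genes, listed by symbol. They cover HSP90 and its co-chaperones, HSP70 and HSP110 proteins, BAG proteins, J proteins, the chaperonin TRiC, mitochondrial chaperones, heat shock factors and small heat shock proteins. Of the 45, 42 were measured among 19775 genes, through 97 of 54675 probe sets. TCP1 had 3 probe sets, all of them shared with other symbols, and TCP1, HSF2 and HSPB11 were not analysed here. The set is not purely cytosolic, since HSPD1, HSPE1, HSPA9, TRAP1 and DNAJA3 act in mitochondria and HSF1 is a transcription factor.

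Chaperones bind unfolded or partly folded proteins and release them in cycles driven by ATP. J proteins deliver clients to HSP70 and stimulate its ATPase, BAG and HSP110 proteins exchange its nucleotide, and STIP1 passes clients on to HSP90, which matures kinases and steroid receptors with further co-chaperones. TRiC is a ring-shaped chamber that folds actin, tubulin and other proteins, HSPD1 and HSPE1 form the matching chamber of mitochondria, and HSF1 switches on many chaperone genes under proteotoxic stress. Growing leukaemia cells make much protein and are known to depend on these machines.

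The 2 lines, HPB-ALL and KOPT-K1, are human T-cell acute lymphoblastic leukaemia lines. The 4 groups were HPB-ALL with SAHM1, HPB-ALL with DMSO, KOPT-K1 with SAHM1 and KOPT-K1 with DMSO, with SAHM1 at 20 µM, DMSO as its vehicle in matching amount, and a culture time of 24 hours in all. SAHM1 is a stapled peptide built from mastermind-like, a co-activator of the NOTCH transcription complex, and was designed to block that complex. Each group held 3 cultures with 1 array each, 12 Affymetrix U133 Plus 2.0 arrays in all, and nothing in the labels separates cultures by day, so p-values cover only the spread among cultures of 1 experiment. Each line is a single model of the disease.

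Every deposited value was a ratio to the DMSO mean of its line, and values are given here as log2 values, so that DMSO arrays lie around 0. Differences between SAHM1 and DMSO are log2 differences ± the standard error (SE) of limma, fitted over all genes. A gene was called changed at a Benjamini-Hochberg adjusted p under 0.05 over all 19775 genes. Expression levels are lost on this scale, so neither the levels of genes nor the labelled T-cell identity could be compared with markers. The median SE of a gene was 0.085 within a line, which the number of arrays limits. Of 7 T-cell markers, CD7 (-0.51) and LCK (-0.22) fell and CD3G (0.71) rose in HPB-ALL, and 0 of 7 were called in KOPT-K1 by limma (2 at an unadjusted p under 0.05). Of 6 measured markers of B, myeloid and erythroid cells, MS4A1 rose in KOPT-K1 (0.32) and the others were not called in either line. The part of these markers in the results was not tested. In cultures measured whole, fewer cells of a kind and less RNA per cell cannot be told apart.

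In HPB-ALL, 14 of the 42 chaperone genes fell with SAHM1 and 0 rose. That is 33.3% of the set called lower, against 4.38% of all genes tested, and 0 called higher, against 4.96% of all genes. The largest fall was that of HSP90AB1, the constitutive cytosolic HSP90, which was 1.59-fold lower. STIP1, FKBP4 and CDC37 of the HSP90 machinery, BAG1, the J proteins DNAJA1, DNAJB1 and DNAJB6, the TRiC subunits CCT2, CCT3, CCT6A and CCT7, and the mitochondrial HSPE1 and TRAP1 fell with it. The median of the 42 members was -0.12, against -0.021 for all genes, and 33 of 42 lay below 0. All 3 SAHM1 arrays lay below all 3 DMSO arrays for 23 of 42 members (54.8%, against 15.7% of all genes), and above them for 2 (4.76%, against 13.4%). At an unadjusted limma p under 0.05, 3 members were higher (10.9% of all genes) and 17 lower (11.1% of all genes). Leaving out 1 array at a time kept 10 to 14 of the 14 calls, and quantile normalization kept 9 (with 2.11% of all genes called).

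In KOPT-K1 the set divided. With SAHM1, 6 of 42 members rose, which is 14.3% against 5.85% of all genes, and 7 fell, which is 16.7% against 13.2% of all genes. The share called lower was thus near that of all genes. The risers were STIP1, STUB1, DNAJA1, DNAJB1, DNAJB4 and CCT4. The genes that fell were HSPA9, FKBP5, BAG5, HSPA4, HSPA4L, DNAJC2 and CCT5. The median of the 42 members was -0.076, against 2.0e-05 for all genes, and all SAHM1 arrays lay above all DMSO arrays for 11 members (26.2%, against 13.5% of all genes) and below them for 15 (35.7%, against 21.6%). Of the 13 calls, 6 were kept without SAHM1 replicate 1 and 6 without DMSO replicate 1, 8 without SAHM1 replicate 2, DMSO replicate 2 or DMSO replicate 3, and 10 without SAHM1 replicate 3, and FKBP5, BAG5, DNAJB1, CCT5 and HSPA9 were kept every time. After quantile normalization of the arrays, 0 of 42 were called in KOPT-K1 by limma (0.688% of all genes). At an unadjusted limma p under 0.05, 4 were then higher (3.78% of all genes) and 4 lower (7.25%).

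The response differed between the lines for 18 of 42 members by the test of the difference itself, 42.9% against 16.8% of all genes. The HPB-ALL response was lower than the KOPT-K1 response for 14 of them (5.41% of all genes) and higher for 4 (11.4% of all genes). The 14 were HSP90AB1, STIP1, FKBP4, CDC37, ST13, STUB1, BAG1, DNAJA1, DNAJB1, DNAJB6, CCT2, CCT3, CCT4 and HSPE1. The 4 were FKBP5, BAG4, BAG5 and HSPA9. DNAJB1, DNAJA1 and STIP1 fell in HPB-ALL and rose in KOPT-K1, each by its own test. That is 3 of 42 members (7.14%), against 0.217% of all genes. The rise of STIP1 in KOPT-K1 was called without SAHM1 replicate 2 but not without any other single array of that line, at 0.18 to 0.21 throughout, and that of DNAJA1 was not called without DMSO replicate 1 (0.20). The fall of DNAJA1 in HPB-ALL was not called without SAHM1 replicate 2 or without DMSO replicate 3. With the 18S covariate none of the 3 falls in HPB-ALL was called (limma adjusted p = 0.594 for DNAJB1, 0.471 for DNAJA1 and 0.112 for STIP1), and after quantile normalization none of the 3 rises in KOPT-K1 was called. Quantile normalization kept 7 of the 18 differences, those of HSP90AB1, STIP1, FKBP4, BAG1, DNAJB1, DNAJB6 and HSPE1 (1.07% of all genes called). As a gene, no member was called lower in both lines (1.28% of all genes), higher in both (0.202%), or lower in KOPT-K1 and higher in HPB-ALL (1.87%). Fitted singly, a pair of HSPA4 probe sets was called lower in both lines. HSPA9 and TRAP1 also had probe sets called lower in each line. In all, 24 members were called in at least 1 line (57.1%, against 24.8% of all genes) and 18 in neither. The plot of both responses by family shows the separation.

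**Figure D1:**
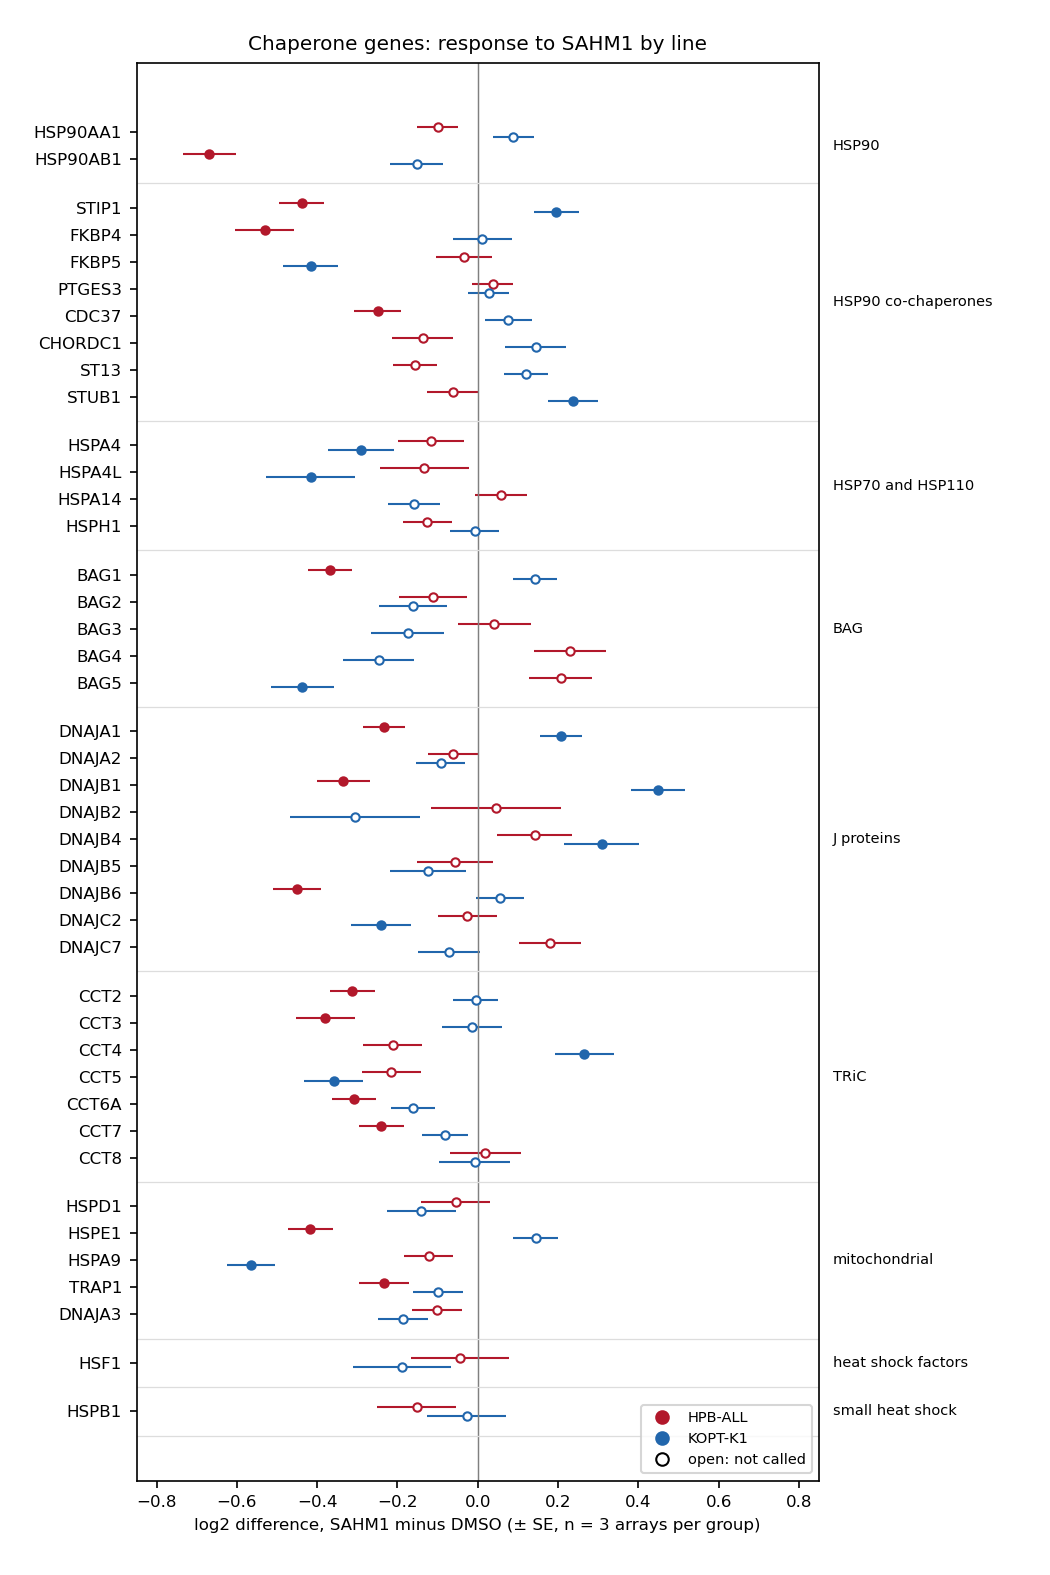
Log2 difference between SAHM1 and DMSO (x axis, ± SE, n = 3 arrays per group) for each of the 42 measured genes, grouped by family, in HPB-ALL (red) and KOPT-K1 (blue). Filled points were called at adjusted p under 0.05; the 14 filled red points all lie left of 0, while the filled blue points lie on both sides, 6 right and 7 left.

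**Figure D2:**
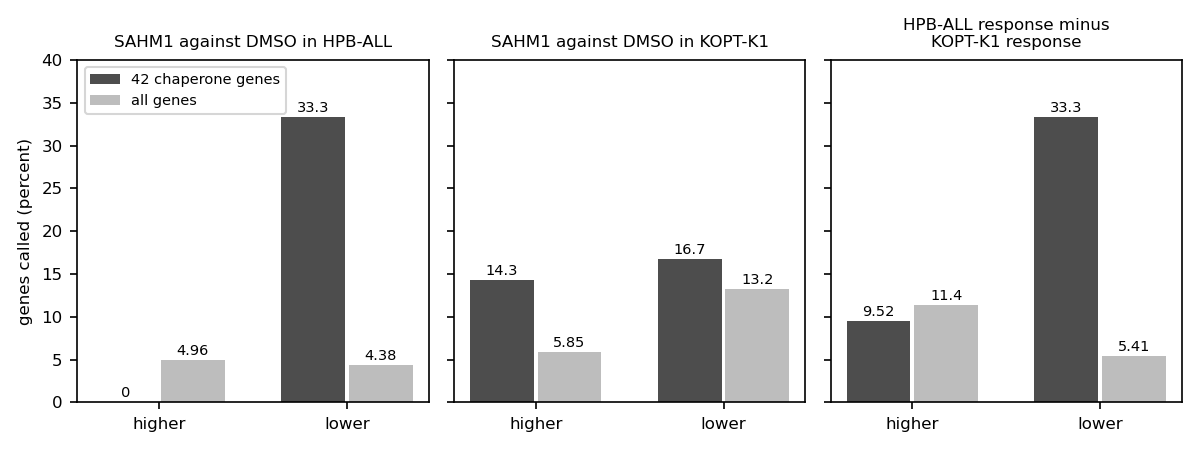
Percent of genes called higher or lower (y axis) among the 42 chaperone genes (dark bars) and among all 19775 genes (light bars), for SAHM1 against DMSO in HPB-ALL, SAHM1 against DMSO in KOPT-K1, and the difference between both responses. The tallest bars are the 33.3% called lower in HPB-ALL and the 33.3% with a lower response in HPB-ALL than in KOPT-K1.

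Control probe sets stood apart between SAHM1 and DMSO arrays. The 3 probe sets for 18S ribosomal RNA stood at 1.35 to 1.89 in the SAHM1 arrays of HPB-ALL and at 1.05, -1.01 and -1.65 in its DMSO arrays, a difference of 2.19 (exact two-sided permutation p = 0.10, the smallest that 3 against 3 arrays can give). In KOPT-K1 the 18S difference was -0.26 (exact p = 0.20). The 18 hybridization spike probe sets differed by -0.39 in HPB-ALL (exact p = 0.50) and by 0.83 in KOPT-K1 (exact p = 0.10), where they stood at 0.60 to 1.05 in the SAHM1 arrays and at -0.018 to 0.0086 in the DMSO arrays. With the 18S level of each array as a covariate, 1 of the 14 falls in HPB-ALL was still called, that of HSP90AB1 (limma adjusted p = 0.0401, with 0.106% of all genes called lower). All 14 values stayed below 0, with a median of -0.32 with the covariate and -0.35 without it. Their median SE was 0.098 with the covariate and 0.057 without it. At an unadjusted limma p under 0.05, 15 of 42 members were then lower (3.81% of all genes) and 0 higher (4.4% of all genes), while 0 was also the count called higher after adjustment. In KOPT-K1, 11 of 13 calls were kept with this covariate (17.7% of all genes called), and of the differences between lines 3 of 18 were kept (STIP1, DNAJB1 and HSPA9, 1.64% of all genes called). With the spike level as a further covariate, 1 of 14 calls was kept in HPB-ALL (HSP90AB1, with 0.197% of all genes called), 2 of 13 in KOPT-K1 (DNAJB1 and HSPA9, with 3.02%) and 0 of 18 for the difference by limma (0.344%). For the difference, 2 members were then higher (7.03% of all genes) and 11 lower (4.4%) at an unadjusted limma p under 0.05. The part of 18S and of the spikes in the results was not tested beyond these values.

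**Figure D3:**
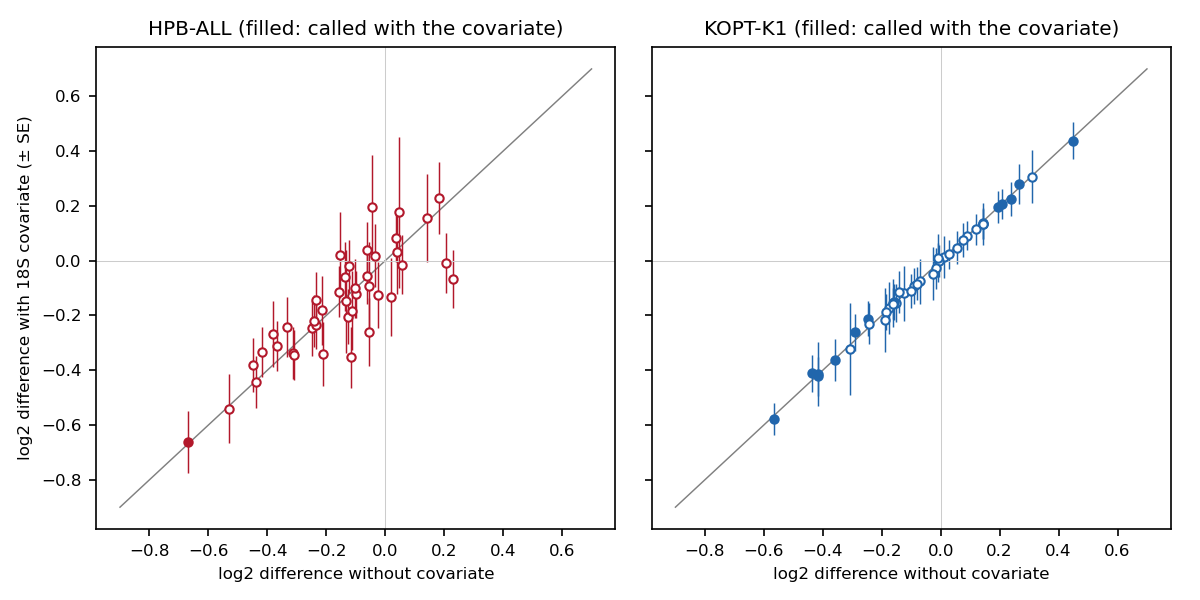
Log2 difference with the 18S level of each array as a covariate (y axis, ± SE) against the log2 difference without it (x axis) for the 42 genes, in HPB-ALL (left panel) and KOPT-K1 (right panel), with the line of equal values. In HPB-ALL the points spread around the line and 1 stays filled (called with the covariate), while in KOPT-K1 they lie on or near it.

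Promoter windows were read for the members because several moved together and HSF1 acts through a known motif, the heat shock element, made of alternating inverted units. RefSeq promoter windows of 300 bases (250 before the start and 50 after it, GRCh38.p14) were found for 35 of the 42 measured members, 50 windows in all. The core, either GAANNTTC or TTCNNGAA, reads the same on both strands, and cores that share a unit overlap. A core was in 16 of the 50 member windows (32%), against 13.5% of the 35116 windows of the table. The form of 3 alternating units, GAANNTTCNNGAA or TTCNNGAANNTTC on either strand, was in 6 windows (12%), against 0.49% of the table. The set was listed as chaperone genes, many of which HSF1 switches on, so both shares describe the list and not the response to SAHM1. The E-box CACGTG, also the same on both strands, was in 4 windows (8%), against 7.26%. By gene, a core was found for 6 of 12 members lower in HPB-ALL and 9 of 23 not called there. In KOPT-K1 it was found for 5 of 5 members that rose, 2 of 7 that fell and 8 of 23 not called. By window, these KOPT-K1 counts were 6 of 10, 2 of 11 and 8 of 29. Over all genes of the table the share with a core was 16.2%. Windows of one gene can overlap, genes with several windows have more chances to hold a core, these letters show no binding, and no match says only that the letters are not in the window. The windows shown are those of the 3 genes that fell in HPB-ALL and rose in KOPT-K1, and those of HSP90AB1, the member that fell most in HPB-ALL, and HSPA9, the one that fell most in KOPT-K1. Where a gene had several windows, the one with the most cores is shown, 5′ to 3′ on the gene's strand, and capitals mark heat shock cores and, in HSPA9, also the E-box.
DNAJB1, chr19:14518348-14518647, minus strand: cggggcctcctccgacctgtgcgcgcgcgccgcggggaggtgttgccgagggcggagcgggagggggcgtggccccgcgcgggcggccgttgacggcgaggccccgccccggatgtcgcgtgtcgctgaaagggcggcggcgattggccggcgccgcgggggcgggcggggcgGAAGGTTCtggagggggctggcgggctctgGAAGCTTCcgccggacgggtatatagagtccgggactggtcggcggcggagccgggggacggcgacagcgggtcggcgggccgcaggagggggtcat
DNAJA1, chr9:33025023-33025322, plus strand: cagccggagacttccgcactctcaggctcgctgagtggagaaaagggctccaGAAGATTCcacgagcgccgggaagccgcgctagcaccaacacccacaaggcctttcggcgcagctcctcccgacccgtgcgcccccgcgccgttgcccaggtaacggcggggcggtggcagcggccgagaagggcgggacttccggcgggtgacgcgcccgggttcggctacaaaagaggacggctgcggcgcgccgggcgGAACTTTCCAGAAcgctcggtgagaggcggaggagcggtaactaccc
STIP1, chr11:64185921-64186220, plus strand: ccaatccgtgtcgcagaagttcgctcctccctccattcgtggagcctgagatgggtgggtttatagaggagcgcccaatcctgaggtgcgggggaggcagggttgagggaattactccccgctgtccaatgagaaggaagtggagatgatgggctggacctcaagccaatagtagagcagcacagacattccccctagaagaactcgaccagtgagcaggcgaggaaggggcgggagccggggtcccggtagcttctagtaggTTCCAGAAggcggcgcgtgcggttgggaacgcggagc
HSP90AB1, chr6:44247693-44247992, plus strand: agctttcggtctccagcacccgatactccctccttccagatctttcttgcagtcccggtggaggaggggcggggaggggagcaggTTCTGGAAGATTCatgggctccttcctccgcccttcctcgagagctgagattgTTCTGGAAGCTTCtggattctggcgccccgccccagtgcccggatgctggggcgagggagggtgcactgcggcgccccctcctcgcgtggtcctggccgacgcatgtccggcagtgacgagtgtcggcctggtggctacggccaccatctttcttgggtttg
HSPA9, chr5:138575352-138575651, minus strand: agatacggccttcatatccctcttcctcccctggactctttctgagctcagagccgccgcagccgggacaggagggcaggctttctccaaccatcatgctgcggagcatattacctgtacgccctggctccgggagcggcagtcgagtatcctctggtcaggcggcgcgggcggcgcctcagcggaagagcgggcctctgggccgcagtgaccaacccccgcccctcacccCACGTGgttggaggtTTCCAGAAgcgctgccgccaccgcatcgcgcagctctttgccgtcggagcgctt

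DNAJB1 had a pair of cores, starting 77 and 47 bases before the start of transcription. DNAJA1 had the form of 3 units just after its start, at bases 3 to 15, and a further core 198 bases before it, and STIP1 had 1 core at bases 13 to 20. HSP90AB1 had the form of 3 units 2 times, starting 165 and 112 bases before this start, which is 1 of 3 that the table gives for the gene. HSPA9 had 1 core across its start and the E-box 19 bases before it. These 5 genes were picked by their changes with SAHM1, so they cannot show a link between cores and response. The part of the cores in these changes was not tested.

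HSP90AB1 (chr6:44246194-44253883, GRCh38.p14) encodes the constitutive form of cytosolic HSP90. It stood at -0.68, -0.78 and -0.55 in the SAHM1 arrays of HPB-ALL, against 0.035, -0.062 and 0.023 in its DMSO arrays. The groups did not overlap, and the log2 difference was -0.67 ± 0.066 (limma adjusted p = 0.000125), with its 3 probe sets between -0.75 and -0.61 and each of them called. In KOPT-K1 the difference was -0.15 ± 0.066 (adjusted p = 0.128), which did not pass the test. The response in HPB-ALL differed from that in KOPT-K1 by -0.52 ± 0.093 on the log2 scale (difference of differences, adjusted p = 0.00305). HSP90AA1, the stress-inducible form, was at -0.10 ± 0.051 in HPB-ALL and 0.088 ± 0.051 in KOPT-K1, and neither value passed the test.

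STIP1, which holds HSP70 and HSP90 together while a client is handed over, stood at -0.47, -0.48 and -0.37 with SAHM1 in HPB-ALL, against 0.019, 0.0097 and -0.03 with DMSO. KOPT-K1 arrays had it at 0.23, 0.16 and 0.19 with SAHM1, against 0.025, -0.0043 and -0.021 with DMSO. The SAHM1 arrays thus lay below every DMSO array in HPB-ALL and above every DMSO array in KOPT-K1. Its log2 difference was -0.44 ± 0.055 in HPB-ALL (adjusted p = 0.000577 by limma) and 0.20 ± 0.055 in KOPT-K1 (adjusted p = 0.0273), and the HPB-ALL minus KOPT-K1 response was -0.63 ± 0.078 (adjusted p = 0.000342). Fitted singly, 0 of its 2 probe sets were called in KOPT-K1 (0.18 and 0.21, limma adjusted p = 0.127 and 0.0593), while both were called lower in HPB-ALL.

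FKBP4 and FKBP5 are related immunophilins that compete for HSP90 in steroid receptor complexes, and they moved in different lines. FKBP4 stood at -0.53, -0.66 and -0.43 with SAHM1 in HPB-ALL, against 0.026, 0.017 and -0.066 with DMSO, a difference of -0.53 ± 0.073 (limma adjusted p = 0.000989). Its 4 probe sets there read -1.01 and -0.68, both called, and -0.29 and -0.14, not called. In KOPT-K1 FKBP4 was at 0.011 ± 0.073, with overlapping arrays. FKBP5 showed the other pattern and stood at 0.002, -0.11 and 0.0057 with SAHM1 in HPB-ALL, against -0.012, -0.018 and 0.03 with DMSO, where the groups overlapped (-0.034 ± 0.069, not called). In KOPT-K1 its values were -0.34, -0.57 and -0.35 with SAHM1, against 0.0051, -0.015 and 0.0077 with DMSO, without overlap. That is a difference of -0.42 ± 0.069 (limma adjusted p = 0.00155), a 1.33-fold fall with all 3 of its probe sets called, between -0.60 and -0.29. The HPB-ALL minus KOPT-K1 response was -0.54 ± 0.10 for FKBP4 and 0.38 ± 0.097 for FKBP5, and both passed the test (adjusted p = 0.00424 and 0.0185).

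Among the other 5 HSP90 co-chaperones, CDC37, the adaptor that brings kinases to HSP90, fell in HPB-ALL (-0.25 ± 0.058) and was at 0.076 ± 0.058 in KOPT-K1. STUB1, a ubiquitin ligase that marks chaperone-bound proteins, was at -0.062 ± 0.063 in HPB-ALL and rose in KOPT-K1 (0.24 ± 0.063). Fitted singly, 1 of its 3 probe sets was called in KOPT-K1 (0.28), with the others at 0.19 and 0.24. ST13, which stabilises the client-bound state of HSP70, was called in neither line (-0.16 in HPB-ALL, 0.12 in KOPT-K1), but its response differed between them (-0.28 ± 0.077, adjusted p = 0.0289 by limma). CHORDC1, an HSP90-binding protein, was at -0.14 in HPB-ALL and 0.14 in KOPT-K1, and PTGES3, the p23 that closes the HSP90 cycle, at 0.037 in HPB-ALL and 0.028 in KOPT-K1. None of these 4 values was called. Of the 8 co-chaperones together, 3 fell and 0 rose in HPB-ALL (median -0.15), where 4.38% of all genes fell and 4.96% rose. In KOPT-K1, 1 fell and 2 rose (median 0.098), where 13.2% of all genes fell and 5.85% rose. In HPB-ALL 0 of the 8 were called by limma with the 18S covariate (adjusted p from 0.112 upward), where 0.263% of all genes were called.

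DNAJB1 is the heat-inducible J protein that works with HSP70, and its response differed most between the lines. It stood at -0.37, -0.42 and -0.21 with SAHM1 in HPB-ALL, against -0.044, 0.035 and 0.0081 with DMSO. The KOPT-K1 arrays gave 0.47, 0.44 and 0.43 with SAHM1, against 0.076, -0.062 and -0.018 with DMSO. The groups did not overlap in either line. DNAJB1 was thus 1.26-fold lower in HPB-ALL (-0.33 ± 0.067, limma adjusted p = 0.00793) and 1.36-fold higher in KOPT-K1 (0.45 ± 0.067, adjusted p = 0.000849). The HPB-ALL minus KOPT-K1 response was -0.78 ± 0.094 (adjusted p = 0.000289). Of its pair of probe sets, 1 was called lower in HPB-ALL (-0.49, the other at -0.18), while both were called higher in KOPT-K1 (0.44 and 0.46).

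DNAJA1, a farnesylated J protein of the cytosol, followed the same pattern with smaller values. It stood at -0.24, -0.23 and -0.23 with SAHM1 in HPB-ALL, against 0.011, -0.04 and 0.028 with DMSO. In KOPT-K1 it stood at 0.25, 0.19 and 0.18 with SAHM1, against -0.017, 0.026 and -0.011 with DMSO. Its SAHM1 and DMSO arrays did not overlap in either line. The differences were -0.23 ± 0.052 in HPB-ALL (limma adjusted p = 0.0146) and 0.21 ± 0.052 in KOPT-K1 (adjusted p = 0.0158), and -0.44 ± 0.074 between them (adjusted p = 0.00203). Fitted singly, 1 of its 2 probe sets was called in KOPT-K1 (0.25, the other at 0.17) and 0 in HPB-ALL.

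DNAJB6, a J protein that keeps aggregation-prone proteins soluble, was measured by 1 probe set. It stood at -0.44, -0.50 and -0.41 with SAHM1 in HPB-ALL, against -0.043, -0.018 and 0.06 with DMSO. KOPT-K1 arrays had it at 0.052, 0.073 and 0.039 with SAHM1, against -0.081, 0.06 and 0.017 with DMSO, and there the groups overlapped. DNAJB6 fell in HPB-ALL (-0.45 ± 0.059, limma adjusted p = 0.00073), was not called in KOPT-K1 (0.056 ± 0.059) and differed between the lines (-0.51 ± 0.084, adjusted p = 0.00193). Of the 9 J proteins outside mitochondria, 3 fell and 0 rose in HPB-ALL, where 4.38% of all genes fell and 4.96% rose. In KOPT-K1, 1 fell, near the 13.2% of all genes, and 3 rose, against 5.85% of all genes. None of the 9 was called in HPB-ALL by limma with the 18S covariate (adjusted p from 0.186 upward), where 0.263% of all genes were called. DNAJB4 was at 0.14 ± 0.093 in HPB-ALL, not called, and was the third riser in KOPT-K1 (0.31 ± 0.093), and the one that fell was DNAJC2 (-0.24 ± 0.074), a J protein of the ribosome. Fitted singly, 0 of the 2 probe sets of DNAJB4 were called in KOPT-K1, both at 0.31. For DNAJC2 only 1 of its pair of probe sets was called (-0.50, the other at 0.021), and with probe sets ending in _x_at or _s_at left out, which can match related sequences, its value was 0.021 (adjusted p = 0.939). DNAJA2, DNAJB2, DNAJB5 and DNAJC7 passed no test as genes, with values of -0.062 to 0.18 in HPB-ALL and -0.31 to -0.07 in KOPT-K1. Fitted singly, 1 of the 3 probe sets of DNAJC7 was called for the difference between the lines (0.74).

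Of the HSP70 relatives, HSPA4 and HSPA4L, nucleotide exchange factors of the HSP110 kind, were not called as genes in HPB-ALL (-0.12 ± 0.083 and -0.13 ± 0.11) and fell in KOPT-K1 (-0.29 ± 0.083 and -0.42 ± 0.11). Fitted singly, 0 of the 2 probe sets of HSPA4L were called in KOPT-K1 (-0.37 and -0.47). The probe sets of HSPA4 differed in HPB-ALL. A pair of them was called lower (-0.38 and -0.34), while the others read -0.16 and 0.41, not called. With 18S as a covariate, HSPA4 was at -0.35 in HPB-ALL (limma adjusted p = 0.323), and the probe set at 0.41 stood at -0.16. HSPH1, the third HSP110 gene, and HSPA14, the HSP70 partner of DNAJC2 at the ribosome, passed no test in either line. HSPH1 was at -0.13 in HPB-ALL and -0.008 in KOPT-K1, and HSPA14 at 0.059 in HPB-ALL and -0.16 in KOPT-K1. Of the 4 genes, 0 were thus called in HPB-ALL by limma (9.34% of all genes), and 2 fell in KOPT-K1 (13.2% of all genes).

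BAG proteins open the nucleotide pocket of HSP70, and 1 of the 5 fell in each line, BAG1 in HPB-ALL (4.38% of all genes) and BAG5 in KOPT-K1 (13.2% of all genes). BAG1 stood at -0.41, -0.39 and -0.32 with SAHM1 in HPB-ALL, against -0.032, 0.021 and 0.0017 with DMSO. In KOPT-K1 its values were 0.19, 0.11 and 0.13 with SAHM1, against 0.031, -0.015 and -0.024 with DMSO. BAG1 fell in HPB-ALL (-0.37 ± 0.055, limma adjusted p = 0.00154), while in KOPT-K1 the groups did not overlap but the value of 0.14 ± 0.055 was not called (adjusted p = 0.0872). The difference between the lines was -0.51 ± 0.078 (adjusted p = 0.00121). In KOPT-K1 a pair of BAG1 probe sets was called higher (0.31 and 0.41) and the third read -0.29.

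BAG5 fell in KOPT-K1 and was not called in HPB-ALL. It stood at 0.21, 0.22 and 0.12 with SAHM1 in HPB-ALL, against 0.16, -0.19 and -0.035 with DMSO, and these groups overlapped. The KOPT-K1 arrays gave -0.46, -0.47 and -0.40 with SAHM1, against -0.043, 0.018 and -0.0013 with DMSO, without overlap. Its difference was 0.21 ± 0.078 in HPB-ALL, not called and with probe sets from -0.15 to 0.73, and -0.44 ± 0.078 in KOPT-K1 (limma adjusted p = 0.00252). The difference between the lines was 0.64 ± 0.11 (adjusted p = 0.00236). BAG4, known to bind death receptors, was called in neither line (0.23 in HPB-ALL, -0.25 in KOPT-K1) but differed between them (0.48 ± 0.13, adjusted p = 0.0219). With 18S as a covariate, the HPB-ALL values of BAG5 and BAG4 were -0.008 and -0.067. BAG2, an inhibitor of STUB1, and BAG3, a factor of stress-induced autophagy, passed no test as genes, with -0.11 and 0.041 in HPB-ALL and -0.16 and -0.17 in KOPT-K1. Fitted singly, 1 of the 3 probe sets of BAG2 was called lower in KOPT-K1 (-0.48), with the others at -0.099 and 0.091.

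The TRiC chaperonin is built from paralogous subunits, of which 7 were measured. In HPB-ALL 4 of the 7 fell and 0 rose, with a median of -0.24, where 4.38% of all genes fell and 4.96% rose. Of the 7, 0 were called there by limma with the 18S covariate (adjusted p from 0.212 upward, with 0.263% of all genes called), and all 7 values were below 0 with a median of -0.27. CCT3 was at -0.38 ± 0.075, CCT2 at -0.31 ± 0.056, CCT6A at -0.31 ± 0.055 and CCT7 at -0.24 ± 0.057 (limma adjusted p from 0.00399 to 0.0195). CCT5 (-0.22) and CCT4 (-0.21) lay in the same direction with all SAHM1 arrays below all DMSO arrays, but did not pass the test (adjusted p = 0.0934 and 0.0995), and CCT8 was at 0.019. CCT5 stood at -0.26, -0.22 and -0.17 with SAHM1 in HPB-ALL, against -0.002, 0.0004 and 0.0016 with DMSO. In KOPT-K1 the median of the 7 was -0.014, CCT4 rose (0.27 ± 0.073) and CCT5 fell. CCT5 stood there at -0.41, -0.43 and -0.25 with SAHM1, against 0.13, -0.018 and -0.13 with DMSO, without overlap. Its difference was -0.36 ± 0.074 (limma adjusted p = 0.00541). Both of these KOPT-K1 calls rested on 1 of a pair of probe sets. For CCT4 the probe sets read 0.58 (called) and -0.047, and for CCT5 -0.59 (called) and -0.13. The response in HPB-ALL minus that in KOPT-K1 was called for CCT2 (-0.31), CCT3 (-0.36) and CCT4 (-0.48), all below 0 (5.41% of all genes). Fitted singly, only CCT4 of these had a called probe set for the difference (-0.91, the other at -0.046). With the 18S covariate 0 of the 7 differences were called by limma (adjusted p from 0.0581 upward, with 1.64% of all genes called).

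In mitochondria, HSPE1, the lid of the HSPD1 chamber, was measured by 1 probe set and stood at -0.43, -0.45 and -0.37 with SAHM1 in HPB-ALL, against -0.05, -0.011 and 0.059 with DMSO. In KOPT-K1 it stood at 0.11, 0.13 and 0.19 with SAHM1, against 0.02, -0.019 and -0.0008 with DMSO. The groups did not overlap in either line, with SAHM1 below in HPB-ALL and above in KOPT-K1. HSPE1 fell in HPB-ALL (-0.42 ± 0.056, limma adjusted p = 0.00082), was not called in KOPT-K1 (0.14 ± 0.056, adjusted p = 0.0905) and differed between them (-0.56 ± 0.079, adjusted p = 0.000779). HSPD1 itself was not called in either line as the mean of 5 probe sets (-0.055 ± 0.085 in HPB-ALL, -0.14 ± 0.085 in KOPT-K1). In HPB-ALL a pair of these probe sets was called lower (-0.45 and -0.29), and the others read -0.27, 0.048 and 0.70, none of them called. With the 18S covariate the HSPD1 mean was -0.26 and the probe set at 0.70 stood at -0.14.

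HSPA9, the HSP70 of the mitochondrial matrix that also drives protein import, fell most of all members in KOPT-K1. It stood at -0.098, -0.14 and -0.15 with SAHM1 in HPB-ALL, against -0.076, 0.012 and 0.048 with DMSO. KOPT-K1 arrays had it at -0.56, -0.62 and -0.52 with SAHM1, against 0.064, -0.069 and -0.0022 with DMSO. The SAHM1 arrays lay below the DMSO arrays in both lines. In HPB-ALL the difference of -0.12 ± 0.06 was not called (limma adjusted p = 0.263), while in KOPT-K1 HSPA9 was 1.48-fold lower (-0.57 ± 0.06, adjusted p = 8.81e-05), with 3 of 4 probe sets called between -0.75 and -0.58. The HPB-ALL minus KOPT-K1 response was 0.44 ± 0.085 (adjusted p = 0.00433). TRAP1, the mitochondrial HSP90, fell in HPB-ALL (-0.23 ± 0.062), with 1 probe set called at -0.53 and the other at 0.063. In KOPT-K1 it was at -0.099 and not called as a gene, but there too 1 probe set was called lower (-0.31, the other at 0.11). TRAP1 was at -0.14 in HPB-ALL with the 18S covariate and no longer called (limma adjusted p = 0.834). DNAJA3, the matrix J protein, was at -0.10 in HPB-ALL and -0.19 in KOPT-K1, and passed no test. Of the 5 mitochondrial genes, 2 fell in HPB-ALL, against 4.38% of all genes, and 1 fell in KOPT-K1, near the 13.2% of all genes. HSF1 was at -0.044 ± 0.12 in HPB-ALL and -0.19 ± 0.12 in KOPT-K1. The small heat shock protein HSPB1 was at -0.15 ± 0.098 in HPB-ALL and -0.027 ± 0.098 in KOPT-K1, and none of these 4 values passed the test.

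**Figure D4:**
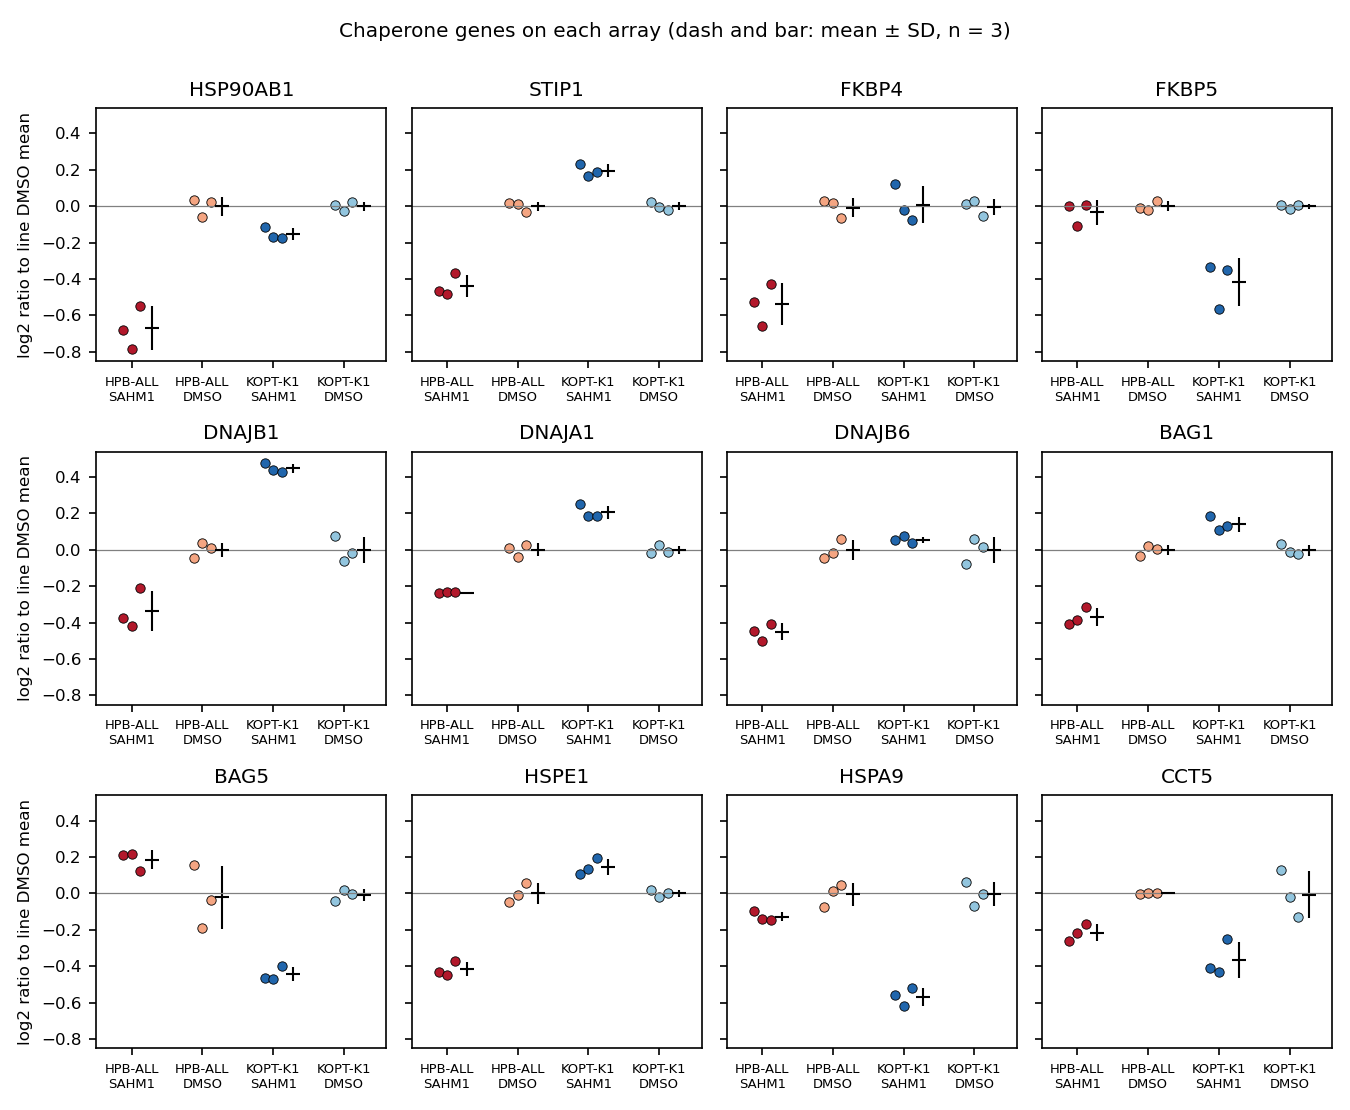
Log2 ratio to the mean of the line's DMSO arrays (y axis) on each of the 12 arrays for 12 chaperone genes, in the order HPB-ALL SAHM1, HPB-ALL DMSO, KOPT-K1 SAHM1 and KOPT-K1 DMSO, with the mean ± SD of each group of 3 beside the points. STIP1, DNAJB1 and DNAJA1 lie below their DMSO arrays in HPB-ALL and above them in KOPT-K1, and for HSPA9 the SAHM1 arrays of KOPT-K1 stand lowest of the 4 groups.

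Single probe sets gave a second view of the members, since 33 of the 42 had more than 1. Fitted singly and adjusted over all 54675, 23 of the 97 member probe sets were called lower in HPB-ALL (23.7%, against 2.06% of all probe sets) and 0 higher by limma (3.09% of all probe sets), with 35 lower and 5 higher at an unadjusted p under 0.05 (share of all probe sets not given). They belonged to 14 members, among them HSPA4, HSPD1 and HSPA9, which were not called as genes, while CDC37, DNAJA1 and CCT7 had no called probe set. In KOPT-K1, 7 of 97 were called higher (7.22%, against 4.77% of all probe sets) and 14 lower (14.4%, against 9.79%). STIP1, DNAJB4 and HSPA4L, called there as genes, had no called probe set in that line. No member had called probe sets in both directions in 1 line. The probe sets of 15 of the 33 members lay on both sides of 0 in HPB-ALL, and those of 12 did in KOPT-K1. With 18S added as a covariate, an alternative added after the data were seen, 0 member probe sets were called lower or higher in HPB-ALL by limma (0.0348% of all probe sets called), with 25 lower and 1 higher at an unadjusted p under 0.05 (share of all probe sets not given).

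**Figure D5:**
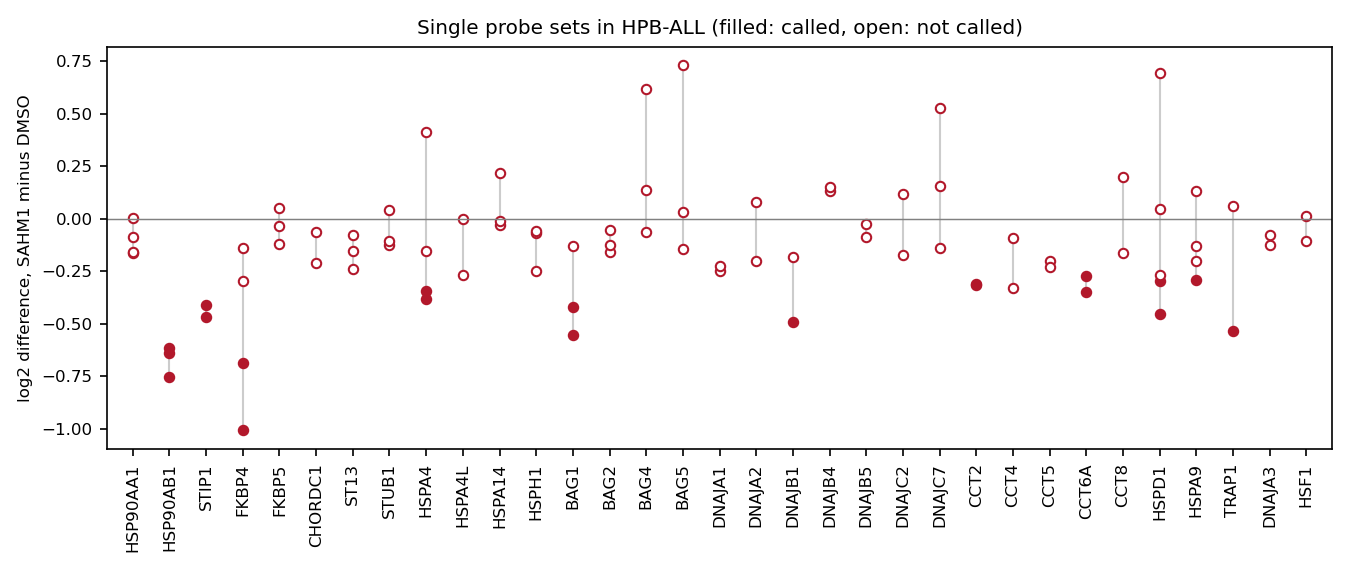
Log2 difference between SAHM1 and DMSO in HPB-ALL (y axis) for each probe set of the 33 members with several probe sets (x axis), joined by a line within a gene. Filled points were called at adjusted p under 0.05 over all probe sets; every filled point lies below 0, and the 5 highest open points belong to BAG5, HSPD1, BAG4, DNAJC7 and HSPA4.

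Other chaperone genes outside the set were taken from a list of 68, of which 61 were measured. In HPB-ALL 9 of 61 fell and 5 rose, and in KOPT-K1 9 fell and 5 rose as well, so 23% of the list was called in each line, against 9.34% of all genes in HPB-ALL and 19% in KOPT-K1. In HPB-ALL the smallest p-values were those of GRPEL1, the nucleotide exchange factor of HSPA9 (-0.41 ± 0.058), RUVBL1, an ATPase of the R2TP complex that works with HSP90 (-0.41 ± 0.068), and DNAJC27, which rose (0.42 ± 0.071). HSPBP1, an exchange factor of cytosolic HSP70 (-0.41 ± 0.076), the prefoldin subunit PFDN2 (-0.25 ± 0.051) and the mitochondrial protease CLPP (-0.32 ± 0.068) came next, all 3 lower. The median of the 61 genes was -0.056 in HPB-ALL and -0.011 in KOPT-K1. With the 18S covariate 0 of the 61 were called in HPB-ALL by limma (0.263% of all genes). At an unadjusted limma p under 0.05, 2 were higher (4.4% of all genes) and 5 lower (3.81%).

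In KOPT-K1 the mitochondrial protease LONP1 fell most clearly (-0.66 ± 0.087), with CLPX, the unfoldase of CLPP (-0.41 ± 0.072), DNAJC16 (-0.48 ± 0.09) and DNAJC13, an endosomal J protein (-0.53 ± 0.11). The prefoldin subunit PFDN5 (0.31 ± 0.05) and PIH1D1 of the R2TP complex (0.33 ± 0.065) rose. LONP1 was also called lower in HPB-ALL (-0.39 ± 0.087). RUVBL1 (-0.24 ± 0.068) and HSPBP1 (-0.28 ± 0.076), named above for HPB-ALL, were also called lower in KOPT-K1. Over all genes, 1.28% were called lower in both lines. After quantile normalization 0 of the 61 were called in KOPT-K1 by limma (0.688% of all genes). At an unadjusted limma p under 0.05, 2 were higher (3.78% of all genes) and 6 lower (7.25%). Of the responses that differed between the lines, 8 were higher in HPB-ALL than in KOPT-K1 and 5 lower, 21.3% of the list against 16.8% of all genes. DNAJC27 (0.75 ± 0.10), DNAJC13 (0.94 ± 0.15), DNAJB14 (0.80 ± 0.15) and DNAJC16 (0.61 ± 0.13) were among the 8, while DNLZ, a partner of HSPA9 (-0.73 ± 0.14), and PFDN5 (-0.32 ± 0.071) were among the 5. DNAJC27, DNAJC13 and DNAJB14 were each called lower in KOPT-K1 and higher in HPB-ALL (1.87% of all genes). DNLZ was called higher in KOPT-K1 and lower in HPB-ALL (0.217% of all genes).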

How the data were processed

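RNA of 12 cultures was hybridised to 12 arrays, in 4 groups of 3. The arrays were summarised with RMA, per the submitters' processing notes, with its version not given in the sources used here. Linear ratios were deposited: in all 54675 probe sets the mean of a line's 3 DMSO arrays was 1 within 1e-06, so the authors' values are ratios to that mean, and signal levels are lost. No filter on dim probe sets could be set, and 0 sample columns were left unused.

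From the deposited ratios, log2 values were taken with no pseudocount. Of the 54675 probe sets, 41097 carried 1 symbol in the platform annotation, 1801 several and 11777 none, and averaging the probe sets of each single symbol gave 19775 genes. One limma model (version 3.58.1, R 4.3.3, functions lmFit and eBayes, two-sided tests) took the 12 arrays with a term for each of the 4 groups, with 8 residual degrees of freedom, or 12.6 after moderation. P-values were adjusted over all genes by Benjamini and Hochberg. The fitting code was tested on simulated data.

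The members and lists were chosen with earlier results of these data known. Per-array values are given for at most 6 members per comparison by smallest p, and of the other chaperone genes at most 6 called ones per comparison are named. Control probe sets were tested by exact permutation. Alternatives were quantile normalization, median scaling, other rules for probe sets, 18S and spike covariates, the replicate number as a block, each line alone and leaving out each array. Same-numbered SAHM1 and DMSO arrays correlated at -0.0548 to 0.0676 in their deviations, so the numbers were not taken as pairs. Promoter windows came from RefSeq (GRCh38.p14) by gene symbol, and STUB1, ST13, FKBP4, HSPA14, BAG4, CCT6A and HSF1 had no entry there.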

Additional observations from a re-analysis of the deposited data

Results flagged for a closer look

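The response to SAHM1 differed between the lines, by limma's test of the difference itself, for 18 members, and each value here is the response in HPB-ALL minus that in KOPT-K1 on the log2 scale. For the HSP90 machinery it was -0.516 for HSP90AB1, -0.635 for STIP1, -0.542 for FKBP4, -0.325 for CDC37, -0.276 for ST13 and -0.299 for STUB1, against 0.382 for FKBP5. In the BAG family it was -0.511 for BAG1, 0.476 for BAG4 and 0.643 for BAG5. Among J proteins it was -0.442 for DNAJA1, -0.783 for DNAJB1 and -0.506 for DNAJB6. Among TRiC subunits it was -0.307 for CCT2, -0.365 for CCT3 and -0.476 for CCT4, and in mitochondria -0.562 for HSPE1 and 0.443 for HSPA9.

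Control probe sets, used for genes only as covariates, stood apart between SAHM1 and DMSO arrays. The mean of the 18S probe sets differed by 2.19 in HPB-ALL, and that of the hybridization spikes by 0.83 in KOPT-K1, on the log2 scale. Both had an exact two-sided permutation p of 0.10, the smallest that 3 against 3 arrays can give, and their part in the results for the chaperone genes was not tested beyond the covariate values given.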

How the results depend on the processing

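All counts are genes called by limma. Median scaling of each array kept 14 of 14 calls in HPB-ALL, 12 of 13 in KOPT-K1 and 18 of 18 differences, and the median of a gene's probe sets kept 14, 13 and 17. Other settings moved the counts, and the cause was not tested. In some of them fewer genes or arrays entered the fit. The share of all genes called moved too, from 9.34% in HPB-ALL, 19% in KOPT-K1 and 16.8% for the difference. In the same order it was 2.11%, 0.688% and 1.07% with quantile normalization. It was 5.96%, 14.6% and 13.3% without _x_at and _s_at probe sets, and 0.263%, 17.7% and 1.64% with 18S. With both covariates it was 0.197%, 3.02% and 0.344%, and with the replicate block 6.38%, 15.5% and 13.2%. With quantile normalization, members lower in HPB-ALL were 9 in place of 14, those in KOPT-K1 were 0 higher in place of 6 and 0 lower in place of 7, and responses that differed were 0 higher in place of 4 and 7 lower in place of 14. Without _x_at and _s_at probe sets, with 30 members left, the counts were 6 lower in HPB-ALL, 2 higher in KOPT-K1, and 2 higher and 4 lower for the difference. With the 18S covariate they were 1 lower in HPB-ALL, and 1 higher and 2 lower for the difference. With 18S and spike covariates they were 1 lower in HPB-ALL, 1 higher and 1 lower in KOPT-K1, and 0 and 0 for the difference. Probe sets singly with the 18S covariate, chosen after seeing the data, gave 0 lower in HPB-ALL and 0 and 0 for the difference. With the replicate number as a block, 1 member was higher in KOPT-K1, and 10 of 14 calls in HPB-ALL, 7 of 13 in KOPT-K1 and 14 of 18 differences were kept. With KOPT-K1 fitted alone, 2 were higher, and 12.8% of all genes were called. Without 1 array, members numbered 0 to 2 higher and 10 to 14 lower in HPB-ALL, 2 to 4 higher and 4 to 7 lower in KOPT-K1, and 3 to 5 higher and 10 to 14 lower for the difference. Of all genes, 4.62% to 10.2% were then called in HPB-ALL, 12.8% to 17% in KOPT-K1 and 11.8% to 17% for the difference.

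For the other chaperone genes, main counts were 5 higher and 9 lower in HPB-ALL, 5 higher and 9 lower in KOPT-K1, and 8 higher and 5 lower for the difference. The shares of all genes called, given above for the gene-level settings, apply to these counts too. Quantile normalization gave 0 and 3 in HPB-ALL, 0 and 0 in KOPT-K1, and 0 and 0 for the difference. Without _x_at and _s_at probe sets they were 2 and 5 in HPB-ALL, 1 and 5 in KOPT-K1, and 2 lower for the difference. With the 18S covariate they were 0 and 0 in HPB-ALL, 3 higher in KOPT-K1, and 0 and 0 for the difference. With both covariates they were 0 and 0 in HPB-ALL, 2 and 1 in KOPT-K1, and 0 and 0 for the difference. The replicate block gave 2 higher in HPB-ALL, 3 higher in KOPT-K1 and 3 lower for the difference, and HPB-ALL alone gave 2 higher. Probe sets singly gave 3 higher in HPB-ALL, 3 higher in KOPT-K1 and 3 lower for the difference, and with the 18S covariate 0 and 0 in HPB-ALL, 2 higher in KOPT-K1 and 0 and 0 for the difference. Without 1 array they ranged over 1 to 4 higher and 4 to 11 lower in HPB-ALL, 2 to 4 higher and 6 to 10 lower in KOPT-K1, and 7 to 9 higher and 2 to 6 lower for the difference.

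At an unadjusted p under 0.05, counts given as 0 for the difference were, for members, 4 higher with quantile normalization and 2 higher and 11 lower with both covariates, and for the other genes 7 and 7 with quantile normalization, 6 and 4 with 18S, and 4 and 3 with both covariates. Of all genes, 8.31% were higher and 5.64% lower with quantile normalization, 10.9% and 5.58% with 18S, and 7.03% and 4.4% with both covariates. Without _x_at and _s_at probe sets only 8 of 14 called members had a value in HPB-ALL, 9 of 13 in KOPT-K1 and 9 of 18 for the difference. There DNAJC2 in KOPT-K1 turned to 0.021, and the FKBP4 difference shrank to -0.0014. In the other gene-level alternatives called members kept their sign. Single probe sets turned for CCT4 in KOPT-K1 (-0.047), TRAP1 in HPB-ALL (0.063) and the BAG1 difference (0.16), and for DNAJC2 in KOPT-K1 as above. Signal over background is lost on the ratio scale, so dim probe sets could not be told from bright ones.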
